A study of Mus musculus with 3 samples.

Results

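The 39 protein-coding Hox genes of the mouse were described in the embryonic maxillary process, a facial tissue whose mesenchyme comes from neural crest that does not use the Hox code. Members were all genes of the GENCODE M21 annotation named Hox with a cluster letter (a, b, c or d) and a paralogue number, and all 39 were found among the 55401 gene identifiers counted. The data were RNA-Seq counts of 3 libraries, OE replicates 1, 2 and 3, all of 1 genotype, Wnt1cre; Rosa26Dlx2/-, at embryonic stage E10.5. These embryos carry a Cre recombinase driven by Wnt1 and 1 copy of a Rosa26 allele (CAG-LSL-Dlx2-3xFlag) from which Cre releases Dlx2, a homeobox gene of the first arch. The allele is thus switched on in cells of the neural crest lineage, while the epithelium, endothelium and blood of the dissected tissue are not of that lineage. Libraries of wild-type embryos were not analysed here. No difference between genotypes was therefore tested, and every value describes the OE tissue. The labels speak of independent RNA samples but do not say whether these were separate embryos, litters or pools, so the spread between libraries may be partly technical.

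Hox genes code for homeodomain transcription factors that give position along the head-to-tail axis. They lie in 4 clusters, and their order within a cluster follows the order in which they are used, with low paralogue numbers in the hindbrain and anterior trunk and high numbers in the posterior trunk, limb buds and genital region. Neural crest that enters the second and more caudal arches expresses Hox genes, of which Hoxa2 is the selector of second-arch identity, whereas the crest of the first arch, which makes the maxillary and mandibular processes, is known as Hox-negative.

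The libraries held 36544554, 35351031 and 40057435 counts on genes, and values are given below as CPM, counts per 1000000 counts on genes after TMM scaling. The transgene target Dlx2 was at 235, 201 and 183 CPM in replicates 1, 2 and 3, although a count does not separate the Rosa26 copy from the endogenous gene. All 12 of 12 maxillary mesenchyme markers had more than 3 counts in every library, against 65.3% of all protein-coding genes. The markers were led by Barx1, Prrx1, Twist1 and Prrx2, with means of 556, 543, 374 and 273 CPM. Replicate 1 stood apart in neuronal genes: 11 of them summed to 398 CPM there, against 28.6 and 39.3 CPM in replicates 2 and 3. Over all genes tested, however, replicates 1 and 2 were the closest pair, and replicate 3 differed most from the others. Between replicates 1 and 2, 43.9% of tested genes differed by more than sampling noise. The share was 65.2% between replicates 2 and 3 and 71.8% between replicates 1 and 3. Several results that rest on replicate 1 are also given without it, but the levels of most single genes are not.

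Transcripts of the Hox family were close to the limit of what these libraries can count. The 39 genes together received 60 counts, of which 36 fell in replicate 1, 13 in replicate 2 and 11 in replicate 3. In replicate 1 the sum was 0.933 CPM, with a 95% exact binomial interval from 0.653 to 1.29 CPM. In replicate 2 it was 0.365 CPM (0.194 to 0.625 CPM), and in replicate 3 it was 0.292 CPM (0.146 to 0.522 CPM). The interval of replicate 1 did not overlap the intervals of the others, which overlapped each other. These intervals cover counting error only, because reads amplified by PCR without molecular identifiers are not independent molecules. The mean of the summed level was 0.530 ± 0.351 CPM (SD, n = 3), and 0.320 CPM without replicate 1.

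None of the 39 genes had more than 3 counts in every library. Among all 21897 protein-coding genes, 65.3% passed that limit. At the other end, 35 of the 39 Hox genes had at most 3 counts in each library, a state shared by 28.0% of protein-coding genes, and by 39 of 39 Hox genes without replicate 1. A total of 22 Hox genes had no count in any library, against 21.4% of protein-coding genes. For each of these 22 genes, 0 counts over the 3 libraries allow a level of up to 0.0268 CPM, so this depth cannot tell a lower level from absence. The best placed Hox gene, Hoxb1, ranked 19541 of 55401 by mean CPM, and the median Hox gene was at 0 CPM. In bulk tissue, a few cells with many transcripts and many cells with few transcripts cannot be told apart.

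**Figure D1:**
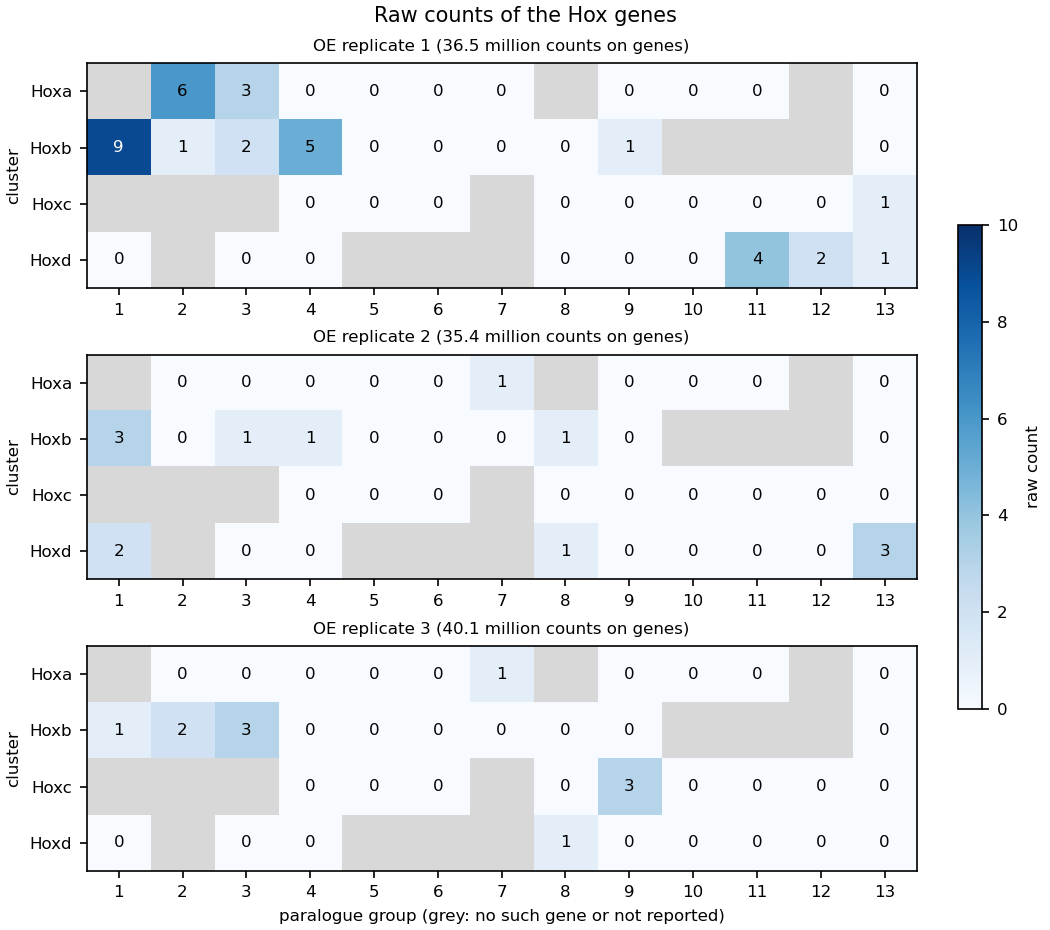
Raw counts of the Hox genes, with clusters as rows, paralogue groups 1 to 13 as columns and 1 panel for each OE library; grey squares have no gene or are not reported. Most squares are 0, the highest value is 9 for Hoxb1 in replicate 1, and the counts of that library lie mostly in groups 1 to 4 of Hoxa and Hoxb and in groups 11 to 13 of Hoxd.

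By cluster, Hoxb held 30 of the 60 counts over its 10 genes, Hoxd 14 over 9 genes, Hoxa 12 over 11 genes and Hoxc 4 over 9 genes. In every library the Hoxb sum was equal to or above that of each other cluster, with 18, 6 and 6 counts in replicates 1, 2 and 3. Hoxd had 7, 6 and 1 counts, Hoxa 10, 1 and 1, and Hoxc 1, 0 and 3. Divided by exonic length, the mean level was 0.0101 CPM per kb in Hoxb, 0.00503 in Hoxd, 0.00339 in Hoxa and 0.00170 CPM per kb in Hoxc. The spread between libraries was large beside these differences. The summed level was 0.265 ± 0.175 CPM for Hoxb, 0.125 ± 0.0859 CPM for Hoxd, 0.105 ± 0.134 CPM for Hoxa and 0.0352 ± 0.0406 CPM for Hoxc (SD, n = 3). Hoxb had the highest summed CPM with every scaling and with each library left out, while the order of the other clusters changed without replicate 1 or replicate 2.

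The anterior genes, paralogue groups 1 to 4, held 40 of the 60 counts in 12 of the 39 genes, with 27, 7 and 6 counts in replicates 1, 2 and 3. Their summed level was 0.00982 CPM per kb, against 0.00179 CPM per kb for the 11 genes of groups 5 to 8 and 0.00320 CPM per kb for the 16 genes of groups 9 to 13. Without replicate 1 these levels were 0.00497, 0.00268 and 0.00198 CPM per kb, so much of the anterior excess was from that library. In replicate 1 the anterior groups were at 0.700 CPM (0.461 to 1.02 CPM), and in replicates 2 and 3 at 0.197 CPM (0.0791 to 0.405 CPM) and 0.159 CPM (0.0585 to 0.347 CPM).

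Group 1 genes pattern the hindbrain and are among the earliest Hox genes to be used. Hoxb1, which specifies rhombomere 4, lies at chr11:96365752-96368256 on the plus strand of mm10 (ENSMUSG00000018973.2) and had 9, 3 and 1 counts. These were 0.233 CPM in replicate 1 (0.107 to 0.443 CPM), 0.0843 CPM in replicate 2 (0.0174 to 0.246 CPM) and 0.0265 CPM in replicate 3 (0.000672 to 0.148 CPM). At 0.0494 CPM per kb it was the highest Hox gene on the scale of exonic length. Hoxb1 was the only Hox gene with at least 10 counts in total, the minimum for a test of whether the 3 libraries differ by more than sampling noise. An exact multinomial test gave p = 0.0299, or 0.0413 after Benjamini-Hochberg adjustment over all 20386 genes tested. Of those genes 73.5% passed the same threshold of 0.05, so a difference between these libraries was the rule. The call for Hoxb1 was lost without replicate 3 (adjusted p = 0.251, exact test), and without replicate 1 its counts were too few to test. Hoxb1 also held 13 of the 60 counts of the family, and without it the other 38 genes had 27, 10 and 10 counts. Its paralogue Hoxd1 had 0, 2 and 0 counts.

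Hoxa2 (chr6:52162417-52164831, minus strand, ENSMUSG00000014704.10), which sets second-arch identity in the crest, had 6, 0 and 0 counts. In replicate 1 it was at 0.155 CPM (0.0571 to 0.338 CPM), and its mean of 0.0292 CPM per kb was the second highest of the family. All of its counts were from 1 library, and without replicate 1 Hoxa2 was at 0. Hoxb2, its paralogue, had 1, 0 and 2 counts.

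Groups 3 and 4 act in the caudal hindbrain, the caudal arches and the neck. Hoxb3 had 2, 1 and 3 counts and was, with Hoxb1, the only Hox gene with a count in each library. Its mean was 0.0125 CPM per kb. Hoxb4 had 5, 1 and 0 counts (0.0205 CPM per kb) and Hoxa3 had 3, 0 and 0. Hoxd3, Hoxa4, Hoxc4 and Hoxd4 had none. These 4 were the only genes of groups 1 to 4 with no count.

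Groups 5 to 8, which pattern the cervical and thoracic region, held 5 counts in 11 genes, and no gene of them had more than 1 count in a library. Hoxa7 had 0, 1 and 1 counts, Hoxd8 0, 1 and 1, and Hoxb8 0, 1 and 0. The 6 genes of groups 5 and 6 had no count. Replicate 1, which held most counts of the family, had none in these 11 genes.

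The posterior groups 9 to 13, used in the lumbar to tail region and in the limb and genital buds, held 15 counts in 16 genes, with 9, 3 and 3 counts in replicates 1, 2 and 3. Hoxd11, which acts in the forearm and kidney with its paralogues, had 4, 0 and 0 counts. Hoxd12 had 2, 0 and 0. Hoxd13, a gene of digits and genitalia, had 1, 3 and 0, and Hoxc9 had 0, 0 and 3. Hoxb9 and Hoxc13 had 1 count each, in replicate 1. The other 10 genes, including all 3 of group 10, had no count. Of the 15 counts, 10 were therefore from Hoxd11, Hoxd12 and Hoxd13, which lie next to each other at the centromeric end of the cluster.

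Among the 4 Hox genes with more than 3 counts in any library, Hoxa2, Hoxb1, Hoxb4 and Hoxd11, all passed that limit in replicate 1 only. Of 801 protein-coding genes that passed it in 1 library only, 42.9% passed in replicate 1. Of 13 Hox genes with a total of 2 to 20 counts, 6 had their highest CPM in replicate 1, 4 in replicate 2 and 3 in replicate 3. Of those in replicate 2, Hoxa7 and Hoxd8 had 1 count each in replicates 2 and 3 and were placed by library size only. Among other protein-coding genes with such totals, 32.9% were highest in replicate 1. The Hox sum in CPM was 2.84 times higher in replicate 1 than in the mean of the others.

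Little of the Hox sequence is hidden by overlapping annotation. Reads that match more than 1 gene were left unassigned by the counting program, and the library kit does not mark strand. Of 103 kb of Hox exons, 88.1% are shared with no other annotated gene on either strand, and 23 of the 39 genes share no base. Hoxd3, Hoxb3 and Hoxd4 share 62.8%, 52.9% and 52.3% of their exonic bases, the only genes for which most of the length could not be counted. For Hoxb3 the level was 0.0266 CPM per kb over unshared bases, in place of 0.0125. Hoxd3 and Hoxd4 stayed at 0.

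The clusters hold 46 other annotated genes, 9 of them with a count, and 42 had at most 3 counts in each library. Of all 55401 identifiers, 28442 had a count. Only 3 of the 46 are protein coding, and the share at or under 3 counts among genes of the same classes elsewhere was not computed. These counts therefore do not show that the clusters are unusual. The clusters span chr6:52155590-52260880 (Hoxa, 105 kb), chr11:96194316-96368256 (Hoxb, 174 kb), chr15:102921103-103036852 (Hoxc, 116 kb) and chr2:74668310-74765142 (Hoxd, 96.8 kb). Hoxaas2, a transcript opposite in strand to Hoxa2 and Hoxa3, had 8, 0 and 0 counts. Hoxb3os, antisense within the Hoxb2 and Hoxb3 region, had 8, 0 and 2 (adjusted p = 0.00879, exact test between libraries, among the 73.5% of genes called). Haglr, between Hoxd3 and Hoxd1, had 4, 0 and 0. Hotairm1, in the Hoxa cluster, had 0, 3 and 0. The first 3 of these had their highest count in replicate 1. So did Hoxa2 and Hoxa3 beside Hoxaas2, but not Hoxb2 and Hoxb3 beside Hoxb3os, which were highest in replicate 3, nor Hoxd1 beside Haglr, which was highest in replicate 2. Over the 6 genes annotated from Hoxb4 to Hoxb1 the counts were 25, 5 and 8. The long non-coding RNAs Hotair and Hoxa11os had no count. The exception in level was Gm11539, a processed pseudogene in the wide gap between Hoxb13 and Hoxb9, with 26, 30 and 133 counts (1.68 ± 1.60 CPM, SD, n = 3). A processed pseudogene can take reads of its parent gene, so the source of these counts is uncertain.

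Each cluster also carries miRNA genes, some of which target transcripts of Hox genes. Of 7 annotated miRNA genes, 6 had mature sequences in RefSeq (GRCm38.p6). The 5p arms fall into 2 seed families and miR-615. They are shown because the miR-10 and miR-196 families are found at matching positions in different clusters, near group 4 and group 9 genes. Capitals mark the seed, bases 2 to 8 from the 5′ end.
miR-10a-5p (Hoxb): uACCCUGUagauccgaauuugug
miR-10b-5p (Hoxd): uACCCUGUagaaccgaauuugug
miR-196a-5p (Hoxb and Hoxc): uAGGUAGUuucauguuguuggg
miR-196b-5p (Hoxa): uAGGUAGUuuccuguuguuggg
miR-615-5p (Hoxc): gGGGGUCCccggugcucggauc
The 7 miRNA genes had no count in any library. Libraries made from poly(A) RNA do not capture mature miRNAs, so these zeros concern only polyadenylated transcripts over the hairpins.

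The near-empty clusters lay between transcribed genes. Of the 24 nearest protein-coding genes, 3 on each side of each cluster, 19 had more than 3 counts in every library. Among all protein-coding genes 65.3% did, and 28.0% had at most 3 counts in each. Mtx2, a mitochondrial import gene 60.7 kb beyond Hoxd1, had 2448, 2302 and 2130 counts, and Lnpk, 88.9 kb beyond Hoxd13, had 1169, 825 and 633. The nearest such genes were Skap2 at 143 kb and Hibadh at 285 kb for Hoxa, Atp5g1 at 119 kb and Snx11 at 399 kb for Hoxb, and Smug1 at 116 kb and Calcoco1 at 199 kb for Hoxc. Skap2 was the lowest of the 19 at 0.475 CPM per kb, while the highest Hox gene was at 0.0494 CPM per kb. The 5 flanking genes at or under 3 counts in each library were Evx1 (1, 1 and 0 counts), Evx2 (0, 0 and 0), Ttll6 and Calcoco2 (none) and Skap1 (0, 0 and 1). Evx1 and Evx2 are homeobox genes linked to the posterior ends of Hoxa and Hoxd and are used in the posterior body and spinal cord.

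**Figure D2:**
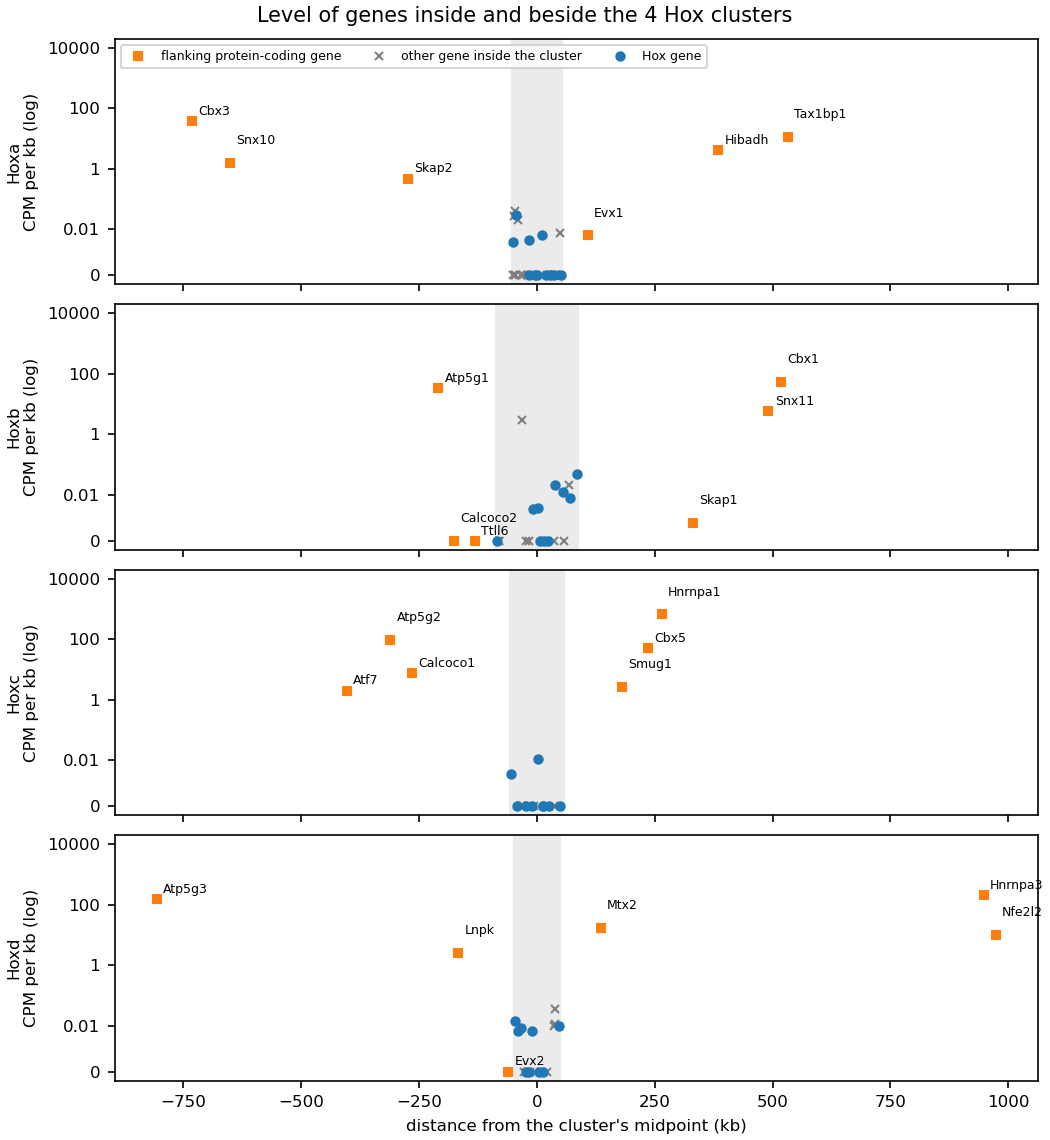
Mean CPM per kb of exon (log axis, with 0 drawn at the bottom) of Hox genes, other genes inside each cluster and the 3 nearest protein-coding genes on each side, against the distance in kb from the cluster's midpoint. The grey band is the cluster: Hox genes inside it stay at or below 0.0494 CPM per kb, while 19 of the 24 flanking genes lie at 0.475 CPM per kb or above.

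Some other homeobox genes were abundant in the same libraries. A search of translated transcripts for a homeodomain sequence pattern found 142 homeobox genes outside the Hox clusters, an incomplete set because genes such as Barx1 and the Meis family do not match it. Of these, 75 had more than 3 counts in every library (52.8%, against 65.3% of all protein-coding genes) and 40 had at most 3 counts in each (28.2%, against 28.0% of all protein-coding genes). Their summed level was 5.56 ± 0.149 CPM per kb (SD, n = 3), against 0.00515 ± 0.00341 CPM per kb for Hox genes. The ratio between these levels was 598 in replicate 1, 1561 in replicate 2 and 2016 in replicate 3. Among the 142 genes, the 5 with the highest mean CPM were Prrx1 (543 CPM), Pbx2 (294 CPM), Prrx2 (273 CPM), Msx1 (229 CPM) and Dlx2 (206 CPM). Prrx1, Prrx2 and Msx1 mark facial mesenchyme, and Dlx2 includes the transgene. Barx1, which the pattern missed, was at 556 CPM.

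Transcripts of the partners of Hox proteins were abundant. Pbx proteins and the Meis and Pknox proteins form complexes with Hox proteins on DNA, and also with other homeodomain proteins. All 9 of these 9 genes had more than 3 counts in every library, against 65.3% of all protein-coding genes. The list summed to 837, 813 and 799 CPM. Pbx2 was at 294 ± 38.3 CPM, Meis2 at 162 ± 42.9 CPM and Pbx3 at 57.3 ± 5.72 CPM (SD, n = 3). The list differed little between libraries in sum, although 8 of the 9 genes differed beyond sampling noise, against 73.5% of all genes tested.

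Of 18 genes that control Hox clusters, 15 had more than 3 counts in every library, against 65.3% of all protein-coding genes. The Polycomb genes, which keep Hox clusters repressed, were among the most abundant: Ezh2, the methyltransferase, was at 237 ± 38.9 CPM, Suz12 at 90.9 ± 29.2 CPM and Bmi1 at 80.4 ± 28.3 CPM (SD, n = 3). Rarg, a receptor for retinoic acid, which activates anterior Hox genes, was at 152 ± 10.8 CPM. Cyp26c1, which breaks retinoic acid down, had 1487, 675 and 335 counts, and Aldh1a2, which makes it, had 190, 88 and 177. The 3 genes that did not pass the limit in every library are activators of Hox genes. Cdx4 had no count and Cdx2 had 0, 0 and 2, both genes of the posterior body that activate trunk Hox genes. Egr2, which activates group 2 genes in rhombomeres 3 and 5, had 5, 1 and 1.

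The ParaHox genes are sisters of the Hox genes in their own small cluster or dispersed. Of 6 genes, 3 had at most 3 counts in each library, against 28.0% of all protein-coding genes. Of the 6, Cdx1 alone had more than 3 counts in every library (34, 50 and 28), against 65.3% of all protein-coding genes. Gsx2, a forebrain gene, had 0, 3 and 50 counts, Gsx1 had 4, 0 and 4, and Pdx1 had none. In Mnx1, a motor neuron and pancreas gene that is linked to no Hox cluster, no count was found.

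**Figure D3:**
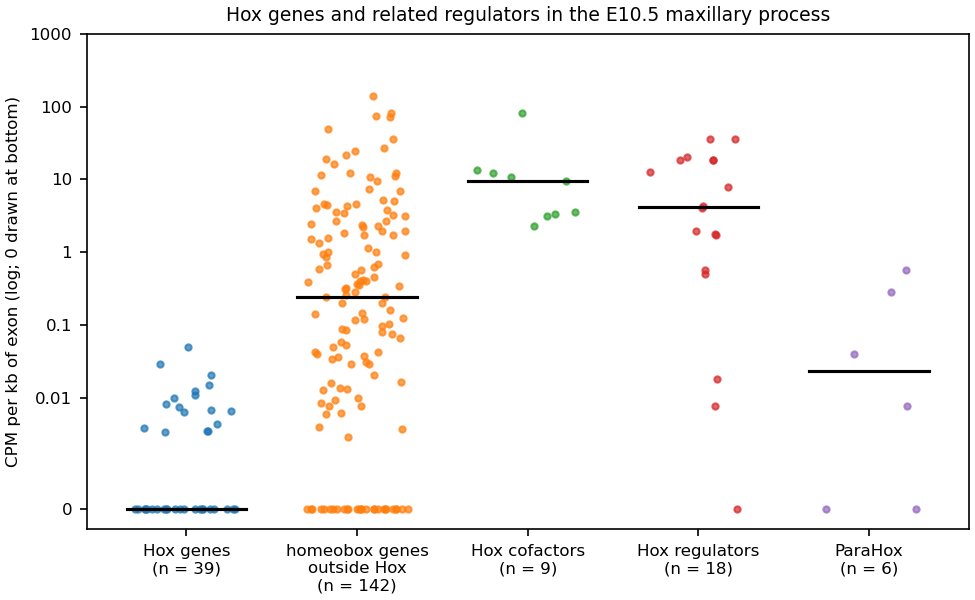
Mean CPM per kb of exon over the 3 libraries (log axis, with 0 drawn at the bottom) for each gene of 5 sets; the bar is the median of the set. The 39 Hox genes lie at 0.0494 CPM per kb or below with a median of 0, and the 142 homeobox genes outside the clusters have a median of 0.244 CPM per kb.

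Marker genes of other regions and cell types were set beside the Hox counts by library. The hindbrain list includes En1, En2 and Gbx2, which mark the boundary with the midbrain, where Hox genes are not used. The hindbrain list of 8 genes summed to 21.2, 16.5 and 14.4 CPM in replicates 1, 2 and 3, the same library order as the Hox sum. Of these genes, 5 of 8 passed 3 counts in every library, against 65.3% of all protein-coding genes. Egr2 had 5, 1 and 1 counts and En1 had 7, 0 and 8. The trunk and limb list of 11 genes summed to 14.4, 7.42 and 8.76 CPM, but to 4.66, 5.65 and 7.33 CPM without Tbx18, so that replicate 1 turned from the highest to the lowest library. Of its genes, 6 of 11 had more than 3 counts in every library, against 65.3% of all protein-coding genes. At most 3 counts in each were found for 3 of 11, against 28.0%. Cdx4 and Msgn1 had no count and Cdx2 had 0, 0 and 2. Other genes of the list were counted in every library: Cdx1 had 34, 50 and 28, Tbx6 22, 24 and 37, and Tbx4 26, 50 and 53. Uncx had 44, 26 and 58, and Meox1 had 20, 15 and 63. Tbx18, also a gene of other mesenchyme, had 375, 63 and 54 counts, while Tbx5, of heart and forelimb, had 0, 36 and 27. All 11 neuronal genes were highest in replicate 1, with a range of the sum from 28.6 to 398 CPM, and they include genes such as Pou4f1 and Neurog1 that are used in cranial ganglia as well as in the central nervous system.

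Other lists moved differently. Forebrain, midbrain and eye genes, which do not mark Hox-expressing tissue, summed to 25.6, 106 and 99.3 CPM, with replicate 1 the lowest. Endothelial genes summed to 218, 237 and 140 CPM, erythroid genes to 990, 1871 and 2083 CPM, and macrophage genes to 18.0, 20.6 and 15.6 CPM. The 4 mandibular genes summed to 12.5, 14.8 and 22.7 CPM, with Hand1 at 5, 2 and 1 counts, and maxillary mesenchyme genes to 2085, 2231 and 2826 CPM. The part of hindbrain, trunk or neuronal transcripts in the higher Hox sum of replicate 1 was not tested, and with 3 libraries no correlation between the lists and the Hox genes was computed.

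**Figure D4:**
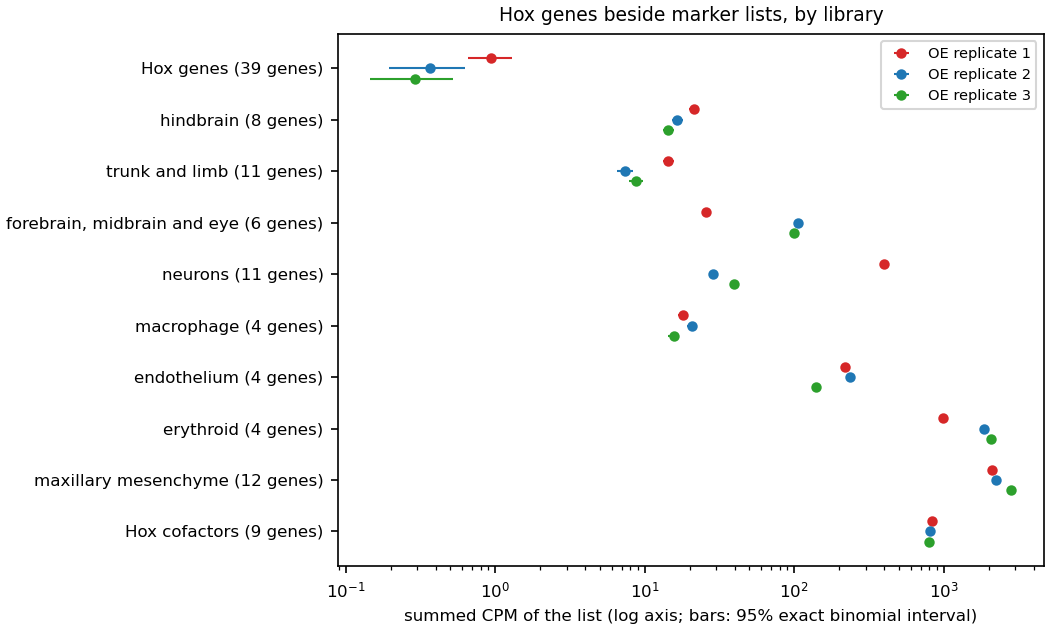
Summed CPM of the 39 Hox genes, of 8 marker lists and of the Hox cofactors in each OE library, on a log axis, with 95% exact binomial intervals that are narrower than the points for most lists. Replicate 1 is highest for Hox genes, Hox cofactors and hindbrain, neuronal, and trunk and limb genes (the last through Tbx18), and lowest for forebrain, midbrain and eye, erythroid and maxillary mesenchyme genes.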

How the data were processed

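Poly(A) RNA of 3 maxillary process samples was sequenced by the authors, who deposited whole-number read counts per gene, without normalization, for each library. Per the submitters' processing notes, STAR 2.7.3a, HTSeq 0.12.4 and the mm10 genome were used. The strand setting and annotation release are not given in the sources used here. Rows that name no gene (14.2%, 15.7% and 16.4% of counted reads) were left out of library sizes. Of 55401 identifiers, 55141 matched GENCODE M21, which gave names, coordinates and exonic lengths, and 260 did not.

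CPM used edgeR 4.0.16 TMM factors (1.06, 1.01 and 0.940). A gene was taken as counted above 3 counts in a library, which is 0.0777, 0.0843 and 0.0796 CPM. Differences between libraries were tested per gene with an exact multinomial test for totals up to 200 counts, or a chi-square test above, with Benjamini-Hochberg adjustment over genes with at least 10 counts. This compares libraries, not conditions, and was tested on simulated data. Every pair of libraries differed beyond sampling noise, so none was counted as a repeat of another. Averaged over genes, chi-square divided by its degrees of freedom was 64.5 for replicates 1 and 2. It was 159 for replicates 2 and 3 and 304 for replicates 1 and 3. Homeobox genes were found by the homeodomain pattern in translated GENCODE transcripts, where RefSeq proteins had been planned.

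All 39 Hox genes, other cluster genes, 3 flanking genes a side and the marker, cofactor and regulator lists were named by rule. Of the lists, the most abundant genes and those at the limit are given. Values of some genes named by the rule are left out. Members and lists were chosen with earlier results of these data known, and the ParaHox genes, Evx1, Evx2 and Mnx1 as lists, and single genes such as En1, Tbx18, Tbx5, Cyp26c1 and Aldh1a2, were picked after their values were seen. Alternatives were DESeq2 1.42.0 size factors, totals only, other limits, filters and lengths, and each replicate left out. The trunk and limb list without Tbx18 and the paralogue groups without replicate 1 were added after seeing the data. R 4.3.3 and Python 3.11.15 were used.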

Additional observations from a re-analysis of the deposited data

How the results depend on the processing

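Of 166 alternative values for 43 results, 145 kept their side of the threshold, stayed near the main count or stayed within the SD between libraries. Another 19 moved and 2 were weaker. This is a loose measure for genes counted in 1 library only, whose SD exceeds their mean. Hoxa2, at 0.0518 ± 0.0898 CPM (SD, n = 3), was among the unchanged although it fell to 0 without replicate 1. With a limit of 0 counts, 2 Hox genes (Hoxb1 and Hoxb3) were above it in every library and 22 were at it in all, and with a limit of 10 counts these were 0 and 39. The number of Hox genes whose counts differed between libraries beyond noise ranged from 0 to 1 when each replicate was left out, and was 0 with a mean of at least 10 counts as the filter, since no Hox gene had that many. With all genes of at least 1 count tested (53.5% called), the 1 called Hox gene was Hoxa2 (adjusted p = 0.00894, exact test), all of whose counts were from replicate 1, while Hoxb1 had an adjusted p of 0.0554. Over its alternatives the adjusted p of Hoxb1 ranged from 0.0295 (totals only) to 0.251 (without replicate 3). With each replicate left out, the summed Hox level ranged from 0.320 to 0.669 CPM, Hoxa from 0.0266 to 0.148 CPM, Hoxb from 0.160 to 0.327 CPM, Hoxc from 0.0134 to 0.0526 CPM and Hoxd from 0.0949 to 0.180 CPM. Coding length in place of exonic length moved the level per kb of 13 genes upward. At these depths, levels under 0.0268 CPM over the 3 libraries could not be told from 0. No paired analysis was possible because there is 1 group and its labels carry no replicate numbers.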
